A study of Mus musculus with 13 samples.

Results

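The 4 adult globin genes of the mouse, Hba-a1, Hba-a2, Hbb-bs and Hbb-bt, were examined together with 3 genes of red cell maturation, Alas2, Slc4a1 and Bpgm. These 7 members of the 31053 listed genes were taken by symbol, and their counts were read in the 3 libraries in which hemoglobin made up a large share of the counts, which carry the barcode numbers 4, 5 and 6. Counts are of unique molecular identifiers (UMIs), each of which marks 1 captured RNA molecule. Those libraries held 12705 of the 31844 cells that passed the filter. The cells were placed in 5 bins by the percentage of their UMIs that came from the 4 adult globin genes: 5630 cells had below 5%, 327 had 5 to 20%, 908 had 20 to 50%, 627 had 50 to 80% and 5213 had above 80%. The bins were cut by the globin counts, so the rise of globin counts across them, and the fall of the non-hemoglobin UMIs relative to them, are fixed by the rule. The balance between alpha and beta globin was not used for the rule. Alas2, Slc4a1 and Bpgm are part of the non-hemoglobin UMIs, so their counts relative to hemoglobin are not wholly free of it.

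The study compared the lungs of C57BL/6 mice given porcine pancreatic elastase (PPE), which digests elastin and produces emphysema, with those of control mice, of mice left to recover and of an ovalbumin model of asthma. The labels describe 13 lung samples, with 1 each labelled Asthma, Control, PPE-emphysema and PPE-recovery and 3 each labelled Acute injury, Con and emphysema. They give no age, dose or strain. The study sequenced single cells of 1 mouse each from its asthma, emphysema, recovery and control groups, and its other mouse RNA data are of bulk sequencing. The deposited matrix numbers its barcodes from 1 to 7, which are more numbers than those single-cell groups. It names no sample, so the libraries cannot be tied to groups. Values are therefore given by library number, as for 1 sample, with no test between groups. The intervals are exact at 95% and cover counting error only.

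Hemoglobin is built of paired alpha and beta chains, each holding a heme group that binds oxygen. Hba-a1 and Hba-a2 are neighbouring copies that encode the alpha chain, and Hbb-bs and Hbb-bt encode the beta chain. Alas2 encodes the erythroid 5-aminolevulinate synthase, the first and rate-limiting enzyme of heme synthesis in red cell precursors. Slc4a1 encodes band 3, the anion exchanger that carries bicarbonate across the red cell membrane and anchors the spectrin skeleton. Bpgm encodes bisphosphoglycerate mutase, which makes the 2,3-bisphosphoglycerate that lowers the oxygen affinity of hemoglobin. Late in maturation the precursor expels its nucleus and becomes a reticulocyte, which keeps translating globin from stored RNA until its ribosomes and mitochondria are gone.

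The genes lie on 4 chromosomes of the mouse genome (GRCm38). Hba-a1 (ENSMUSG00000069919) spans chr11:32283511-32284465 and Hba-a2 (ENSMUSG00000069917) spans chr11:32296489-32297298, both on the plus strand. Hbb-bt (ENSMUSG00000073940) spans chr7:103812524-103813996 and Hbb-bs (ENSMUSG00000052305) spans chr7:103826534-103828096, both on the minus strand. Alas2 (ENSMUSG00000025270) is at chrX:150547375-150570638 on the plus strand, Slc4a1 (ENSMUSG00000006574) at chr11:102348824-102366203 on the minus strand and Bpgm (ENSMUSG00000038871) at chr6:34476207-34505613 on the plus strand. RefSeq windows of 250 bases before the transcription start were found for 6 of the 7 members, all but Slc4a1. The windows of both beta globin genes, of 1 alpha globin gene, of Alas2 and of Bpgm are shown. These genes were high in the same libraries and cells, and their windows differ in their matches to the letters searched. The capitals mark matches, on either strand, to the GATA motif (AGATAA or GATAAG, which overlap), the CACCC motif (CCACCC), the CCAAT box (CCAAT) and the TATA box (TATAA). They are printed 5′ to 3′ on the strand of the gene, in GRCm38.p6, from chr11:32283422-32283671 for Hba-a1, chr7:103827929-103828178 for Hbb-bs, chr7:103813924-103814173 for Hbb-bt, chrX:150547167-150547416 for Alas2 and chr6:34476106-34476355 for Bpgm. The start in RefSeq lies inside the longer span given above for each gene.
Hba-a1: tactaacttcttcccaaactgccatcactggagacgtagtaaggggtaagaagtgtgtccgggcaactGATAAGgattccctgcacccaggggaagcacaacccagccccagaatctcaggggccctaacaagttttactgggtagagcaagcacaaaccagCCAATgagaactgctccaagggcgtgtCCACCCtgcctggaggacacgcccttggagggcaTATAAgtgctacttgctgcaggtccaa
Hbb-bs: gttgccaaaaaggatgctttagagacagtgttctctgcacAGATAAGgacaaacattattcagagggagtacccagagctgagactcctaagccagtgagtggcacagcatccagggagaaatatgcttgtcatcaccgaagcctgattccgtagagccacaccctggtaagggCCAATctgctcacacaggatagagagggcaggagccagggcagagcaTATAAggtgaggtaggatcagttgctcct
Hbb-bt: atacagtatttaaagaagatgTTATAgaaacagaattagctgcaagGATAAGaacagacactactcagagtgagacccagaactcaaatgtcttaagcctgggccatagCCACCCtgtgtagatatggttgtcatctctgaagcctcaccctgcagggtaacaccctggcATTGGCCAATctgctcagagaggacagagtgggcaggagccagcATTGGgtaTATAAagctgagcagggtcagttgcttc
Alas2: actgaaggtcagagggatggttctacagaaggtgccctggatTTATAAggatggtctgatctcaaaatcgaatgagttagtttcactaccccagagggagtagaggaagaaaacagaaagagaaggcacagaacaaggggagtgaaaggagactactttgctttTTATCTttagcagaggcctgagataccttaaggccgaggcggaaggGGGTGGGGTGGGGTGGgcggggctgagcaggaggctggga
Bpgm: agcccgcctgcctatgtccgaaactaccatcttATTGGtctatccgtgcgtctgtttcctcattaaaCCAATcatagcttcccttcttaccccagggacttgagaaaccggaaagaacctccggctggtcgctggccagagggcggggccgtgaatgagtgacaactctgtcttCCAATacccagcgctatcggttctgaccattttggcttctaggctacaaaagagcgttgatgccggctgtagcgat

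GATAAG was present in the windows of all 4 globin genes and of no other member, 4 of 6 in all, against 6.55% of the 32851 promoter windows of RefSeq. AGATAA was present in 2 of 6, Hbb-bs and Alas2, against 9.99%. CCACCC was found in 4 of 6 members against 28.1% of all windows, CCAAT in 5 of 6 against 33.9% and TATAA in 5 of 6 against 22.8%. Both alpha windows are nearly the same sequence, so these counts are not of independent windows. The TATAA match of Alas2 began 207 bases before the start. The window of Alas2 carried 3 overlapping copies of CCACCC on the opposite strand, between 40 and 25 bases before the start. In Hbb-bs the TATA box began 29 bases before the start and the CCAAT box 76 bases before it, and in Hbb-bt the corresponding distances were 28 and 75 bases. Bpgm, which is also transcribed outside red cells, held no GATA, CACCC or TATA match in these letters and 3 matches to the CCAAT box. The CACCC motif was searched as CCACCC alone, so other forms of it are not marked. The window of Hbb-bs, for example, holds ccacaccc before its CCAAT box. A lack of a match is therefore not a lack of the motif. A match is a description of the letters and not a site of binding.

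The pairs of copies differed in how well 3′ counts could separate them. Over the coding sequence Hba-a1 and Hba-a2 shared 428 of 429 bases, and after the stop codon they shared all 74 bases that could be aligned. Their upstream windows were identical over the 247 aligned bases, so the window of Hba-a2 is not printed. Hbb-bs and Hbb-bt shared 443 of 444 coding bases, but after the stop codon they shared 93 of 129, with no identical run longer than 8 bases. The split between the alpha copies is therefore uncertain, whereas the beta copies differ where a 3′ library reads them. How reads that match both copies were counted is stated in neither the labels nor the methods, and its part in the alpha share was not tested.

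Libraries 4, 5 and 6 stood apart from the others before any member was compared. They held 3000, 5000 and 5000 barcodes, while the other libraries held 3657 to 8747, and the barcode with the fewest UMIs among their kept cells had 5735, 3439 and 3946 UMIs, against 304 to 501 elsewhere. Median UMIs per kept cell were 9084, 5398 and 5271 in libraries 4, 5 and 6 and 5549 to 7557 in the others. Libraries 4 and 5 shared 6 barcode sequences, 4 and 6 shared 2 and 5 and 6 shared 4. Although the labels give lung for every sample, no kept cell of these 3 libraries matched the marker lists of endothelial, epithelial, fibroblast or smooth muscle cells, and in their cells below 5% hemoglobin 3 of 6 epithelial markers had a UMI in each library, summing to 0.0216, 0.0518 and 0.0415 per 10000 other UMIs. Of 5 endothelial markers 3, 2 and 5 had a UMI there, summing to 0.227, 1.56 and 1.71. Summed over these libraries, cells below 5% matched mostly the lists of B cells, with 2957 of 5630 cells, and of monocytes or macrophages, with 1361. The libraries differed in this. Library 4 had 46 cells of the B cell list and 899 of the monocyte or macrophage list there. Library 5 had 1282 and 223, and library 6 had 1629 and 239.

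Each of the 7 members was higher in libraries 4, 5 and 6 than in any other library. Hemoglobin took 39.0%, 41.6% and 35.6% of all UMIs there, against 0.0116% to 0.0408% in libraries 1, 2, 3 and 7. Since each UMI stands for 1 captured 3′ end, counts per 1000000 UMIs (CPM) were not divided by transcript length. Hbb-bs was the most abundant member, with 202400, 190372 and 161977 CPM in libraries 4, 5 and 6 and 49.1 to 205 CPM in the others. Hba-a1 followed with 78003, 96742 and 85438 CPM, against 33.8 to 109. Hba-a2 had 59868, 78225 and 67958 CPM, against 23.9 to 66.99, and Hbb-bt had 49730, 50383 and 40458 CPM, against 9.41 to 48.8. The order Hbb-bs, Hba-a1, Hba-a2, Hbb-bt held in each of libraries 4, 5 and 6. These libraries were taken for their large hemoglobin share, so the gap in globin counts follows from that choice and is not a result. How many of all genes part the 2 sets of libraries in this way was not tested.

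The maturation genes were also higher in each of the 3 libraries, by smaller factors for Slc4a1 and Bpgm. Alas2 had 1223, 1287 and 900 CPM in libraries 4, 5 and 6 and 0.244 to 1.55 CPM elsewhere, so that its lowest value was 581-fold above the highest of the other libraries. Bpgm had 863, 799 and 617 CPM, against 9.07 to 18.4, and the same ratio was 33.6-fold. Slc4a1 had 227, 183 and 53.0 CPM, against 3.69 or less, a ratio of 14.4-fold. The 3.69 CPM was that of library 7, where 80 of 81 Slc4a1 UMIs came from 1 barcode, so the ratio rests on that barcode. In library 1 Slc4a1 had 0.0292 CPM. It had no UMI in libraries 2 and 3, which allows up to 0.0514 and 0.0814 CPM. Slc4a1 was the member that differed most among libraries 4, 5 and 6, and library 6 was the low one for it, for Alas2 and for Bpgm. In these sums over cells, more cells with a gene and more RNA of it per cell cannot be told apart, which is why the bins were examined.

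**Figure D1:**
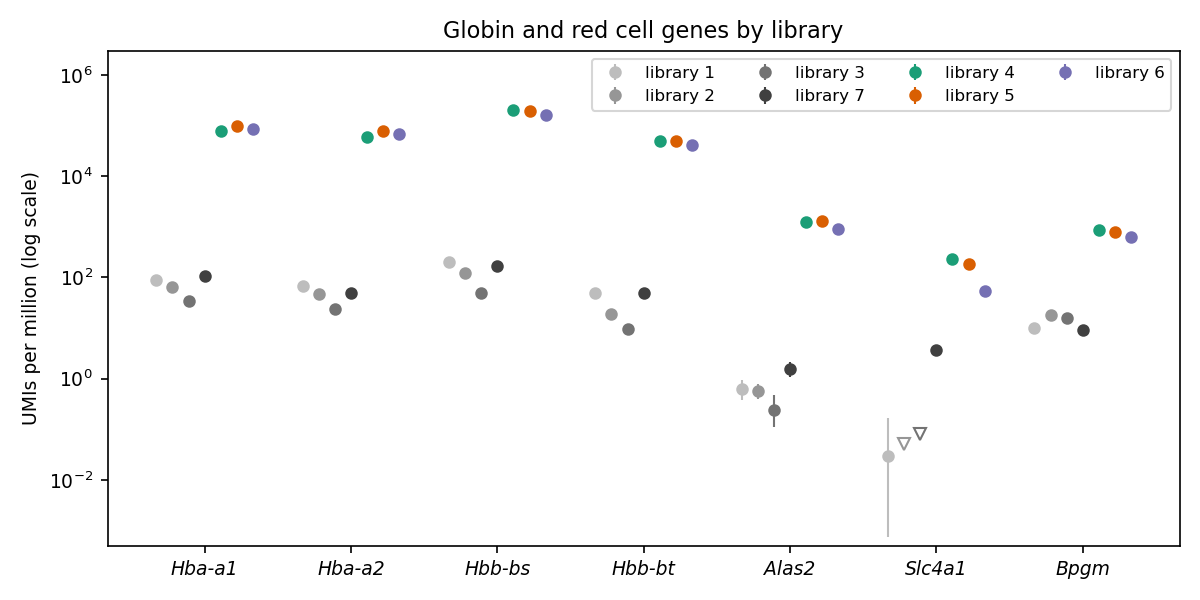
UMIs per 1000000 (log axis) of the 7 members in each of the 7 libraries, where each point is 1 library summed over its kept cells, bars are exact intervals and open triangles mark the limit that a count of 0 allows. Libraries 4, 5 and 6 lie above libraries 1, 2, 3 and 7 for every member, by at least 14.4-fold for Slc4a1 and at least 718-fold for each globin. For the globins this gap follows from the choice of the libraries by their hemoglobin share. The factor of Slc4a1 rests on library 7, where 80 of its 81 UMIs were in 1 barcode.

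Globins of the embryo had few UMIs. Hba-x had 0, 1 and 0 UMIs in libraries 4, 5 and 6, Hbb-y had 7, 7 and 5, Hbb-bh1 had 0, 0 and 1 and Hbb-bh2 had none. The theta-like genes Hbq1a and Hbq1b were low but present, with 109, 208 and 285 UMIs for Hbq1a and 305, 244 and 171 for Hbq1b. Their order over the libraries was opposite: Hbq1a was lowest in library 4, where Hbq1b was highest. How well 3′ counts separate Hbq1a from Hbq1b was not examined. The symbols Hbb-bh0 and Ahsp, the alpha hemoglobin stabilizing protein, were not analysed here.

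The share of alpha globin among adult globin UMIs differed more between libraries than between the bins from 20% hemoglobin up. In cells with at least 20% hemoglobin it was 35.4% in library 4, 42.0% in library 5 and 43.2% in library 6, and 40.2% over all 3. From 20 to 50% to above 80% hemoglobin, the alpha share went from 34.2% to 35.6% in library 4, from 42.4% to 42.0% in library 5 and from 42.1% to 43.3% in library 6. The change had no common direction, whereas library 4 lay below libraries 5 and 6 in all 5 bins. In cells above 80%, the exact interval of the share ran from 35.57% to 35.64% in library 4, from 41.96% to 42.01% in library 5 and from 43.30% to 43.36% in library 6, so counting error was far smaller than the difference between libraries. With 1 library of each number, a difference between mice and a difference between preparations cannot be told apart.

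The copies within each chain kept nearly fixed shares in the same cells. Hba-a1 made up 56.6%, 55.5% and 55.8% of alpha UMIs above 80% hemoglobin in libraries 4, 5 and 6, and Hbb-bt made up 19.9%, 21.0% and 20.2% of beta UMIs. At 20 to 50% hemoglobin Hba-a1 was 56.4%, 54.6% and 55.2% of alpha and Hbb-bt was 19.1%, 20.1% and 18.4% of beta. In all 3 libraries both shares were therefore slightly higher in the bin above 80%. Per 10000 hemoglobin UMIs of the cells above 80%, library 4 had 0.834 times the Hba-a1 of library 6 and 0.806 times its Hba-a2, but 1.14 times its Hbb-bs and 1.12 times its Hbb-bt. Both alpha copies were on one side and both beta copies on the other. The 4 genes make up the hemoglobin UMIs, so a lower alpha share raises the beta share. With nearly fixed shares within each chain, this pattern restates the alpha share.

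Single cells varied around these shares by more than sampling allows. Among cells above 80% hemoglobin, the alpha share had a median of 35.8% in library 4, where 5% of cells lay below 31.1% and 5% above 39.7%. In library 5 the median was 42.1%, with the same limits at 35.7% and 47.8%. The SD over cells was 2.62, 3.73 and 3.27 points in libraries 4, 5 and 6, where binomial sampling of the same counts gives 0.572, 0.729 and 0.725 points. For Hba-a1 as a share of alpha, the SD was 2.45 points in library 4 against 0.994 from sampling, and for Hbb-bt as a share of beta it was 2.91 against 0.595. The split of the alpha copies thus varied least beyond sampling, in libraries 5 and 6 as well. Cells of 1 library are not replicates, so these are descriptions.

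**Figure D2:**
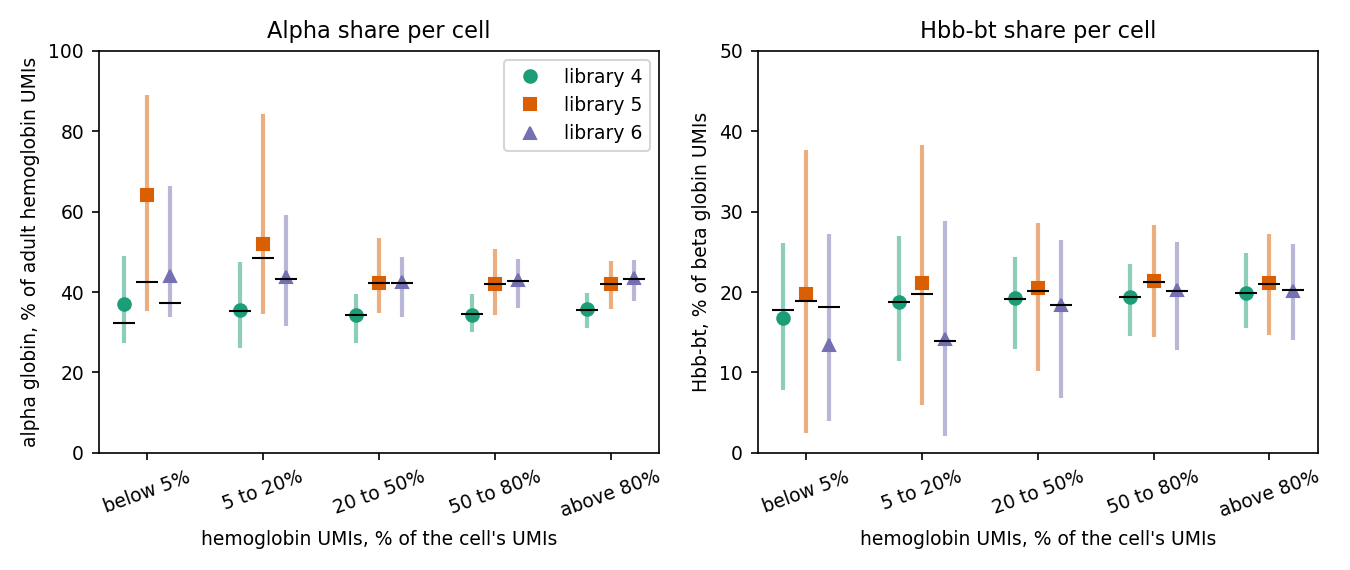
Alpha globin as a percentage of adult hemoglobin UMIs, and Hbb-bt as a percentage of beta globin UMIs, in each hemoglobin bin of libraries 4, 5 and 6. Points are medians over cells with at least 100 hemoglobin UMIs, coloured bars run from the cell at 5% to the cell at 95%, and black lines are the summed UMIs of all cells of the bin. For alpha, library 4 lies lowest in every bin and library 5 is spread most widely below 20% hemoglobin.

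Alpha shares above 60% were seen in few cells and mostly in library 5. Counting only cells with at least 100 hemoglobin UMIs, alpha made up more than 60% in 20 of 40 cells of library 5 with below 5% hemoglobin and in 41 of 115 cells at 5 to 20%. In the same library 5 of 313 cells at 20 to 50% passed this mark, none of the 233 cells at 50 to 80% and none of the 2226 above 80%. Library 4 had 1 such cell in each of the 2 lowest bins and none in the others, and library 6 had 6 and 2. The cells of library 5 at 5 to 20% that matched the B cell list had a median alpha share of 56.8% over 70 cells, with a lowest of 26.3% and a highest of 88.7%, while 13 cells matching the monocyte or macrophage list had a median of 41.4%. In those 70 cells Alas2, Slc4a1 and Bpgm had 39.7, 4.49 and 14.0 UMIs per 10000 hemoglobin UMIs.

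The bin edges alone fix that hemoglobin rises against the other RNA of the cell. The size of the rise also depends on where the cells lie within the bins. Between 20 to 50% and above 80%, hemoglobin per non-hemoglobin UMI rose 16.7-fold in library 4, 13.2-fold in libraries 5 and 6 and 14.4-fold in sum, and any RNA that kept its ratio to hemoglobin would rise by as much. The values of the 3 maturation genes on this scale are therefore given as a description. Alas2 had 16.1, 18.1 and 16.02 UMIs per 10000 non-hemoglobin UMIs at 20 to 50% hemoglobin in libraries 4, 5 and 6, and 244, 220 and 189 above 80%, a summed ratio of 13.0-fold (12.8 to 13.3). Slc4a1 went from 2.91, 2.45 and 0.565 to 44.2, 30.3 and 11.2, or 13.4-fold (12.6 to 14.2). Bpgm went from 10.5, 9.99 and 8.70 to 175, 139 and 132, or 14.9-fold (14.5 to 15.4). On the log2 scale these ratios were 3.71, 3.74 and 3.90, against 3.85 for hemoglobin.

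Against hemoglobin itself, the 3 genes differed by 1.49-fold or less between the same bins in each library. Alas2 had 33.6, 33.3 and 27.9 UMIs per 10000 hemoglobin UMIs at 20 to 50% and 30.6, 30.4 and 24.9 above 80%, a summed ratio of 0.905 (log2 -0.14). It was lower above 80% in each of the 3 libraries. Bpgm went from 22.0, 18.3 and 15.1 to 22.0, 19.2 and 17.3, a ratio of 1.04 (1.008 to 1.065, log2 0.05). Slc4a1 went from 6.10, 4.50 and 0.983 to 5.56, 4.203 and 1.47. Its ratio was 0.929 in sum (log2 -0.11), and 1.49 (1.20 to 1.87) in library 6 alone. Per UMI of all genes, the log2 ratios were 1.22, 1.26 and 1.41 for Alas2, Slc4a1 and Bpgm. The direction of the summed ratios of Alas2 and Slc4a1 thus depended on the denominator, but that of Slc4a1 in library 6 did not.

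Slc4a1 and Alas2 could be followed also in the bins between. Per 10000 hemoglobin UMIs, Alas2 had 44.4, 37.4 and 35.4 in cells with 5 to 20% hemoglobin of libraries 4, 5 and 6, and 32.1, 33.6 and 26.2 in cells with 50 to 80%. In each library the bin of 5 to 20% was the highest of the 5 for Alas2. Slc4a1 at 5 to 20% had 10.04, 5.44 and 1.23, and at 50 to 80% it had 6.67, 6.59 and 2.24. Its highest bin was 5 to 20% in library 4 and 50 to 80% in libraries 5 and 6. Bpgm at 5 to 20% had 21.8, 15.5 and 13.9, and the bin below 5% was its highest in each library, with 31.9, 37.4 and 29.0. At the edges, 51 cells just below 80% hemoglobin and 75 just above it, within 1 point, had 37.7 and 35.8 Alas2 UMIs, 8.25 and 9.18 of Slc4a1 and 21.2 and 22.6 of Bpgm per 10000 hemoglobin UMIs.

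The share of cells with a UMI gave the same order of genes as the counts above 80% hemoglobin, but that order did not hold in every bin. In cells above 80% hemoglobin, Alas2 was seen in 100%, 99.9% and 99.9% of cells of libraries 4, 5 and 6, Bpgm in 100%, 99.7% and 99.0% and Slc4a1 in 86.3%, 64.7% and 35.0%. After each cell had been thinned to 3000 UMIs, Slc4a1 was seen in 65.8%, 51.7% and 24.1% of those cells and in 38.5%, 23.6% and 8.84% at 20 to 50%. Below 5% hemoglobin every cell had a hemoglobin UMI, with medians of 63, 24 and 38, and Alas2 was seen in 21.2%, 7.55% and 8.77% of cells, with median depths of 10344, 5529 and 5110 UMIs. Bpgm was seen in 20.4%, 9.88% and 10.95% of them, a larger share than Alas2 in libraries 5 and 6. Most of those cells matched lymphoid or myeloid lists, which are not known for Alas2, so its shares there are not read as expression. Per 10000 hemoglobin UMIs those cells had 33.6, 28.3 and 21.8 UMIs of Alas2, against 30.6, 30.4 and 24.9 above 80%. Bpgm had 31.9, 37.4 and 29.0, against 22.0, 19.2 and 17.3, and Slc4a1 had 8.04, 2.46 and 0.946, against 5.56, 4.203 and 1.47. The source of these UMIs was not tested.

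**Figure D3:**
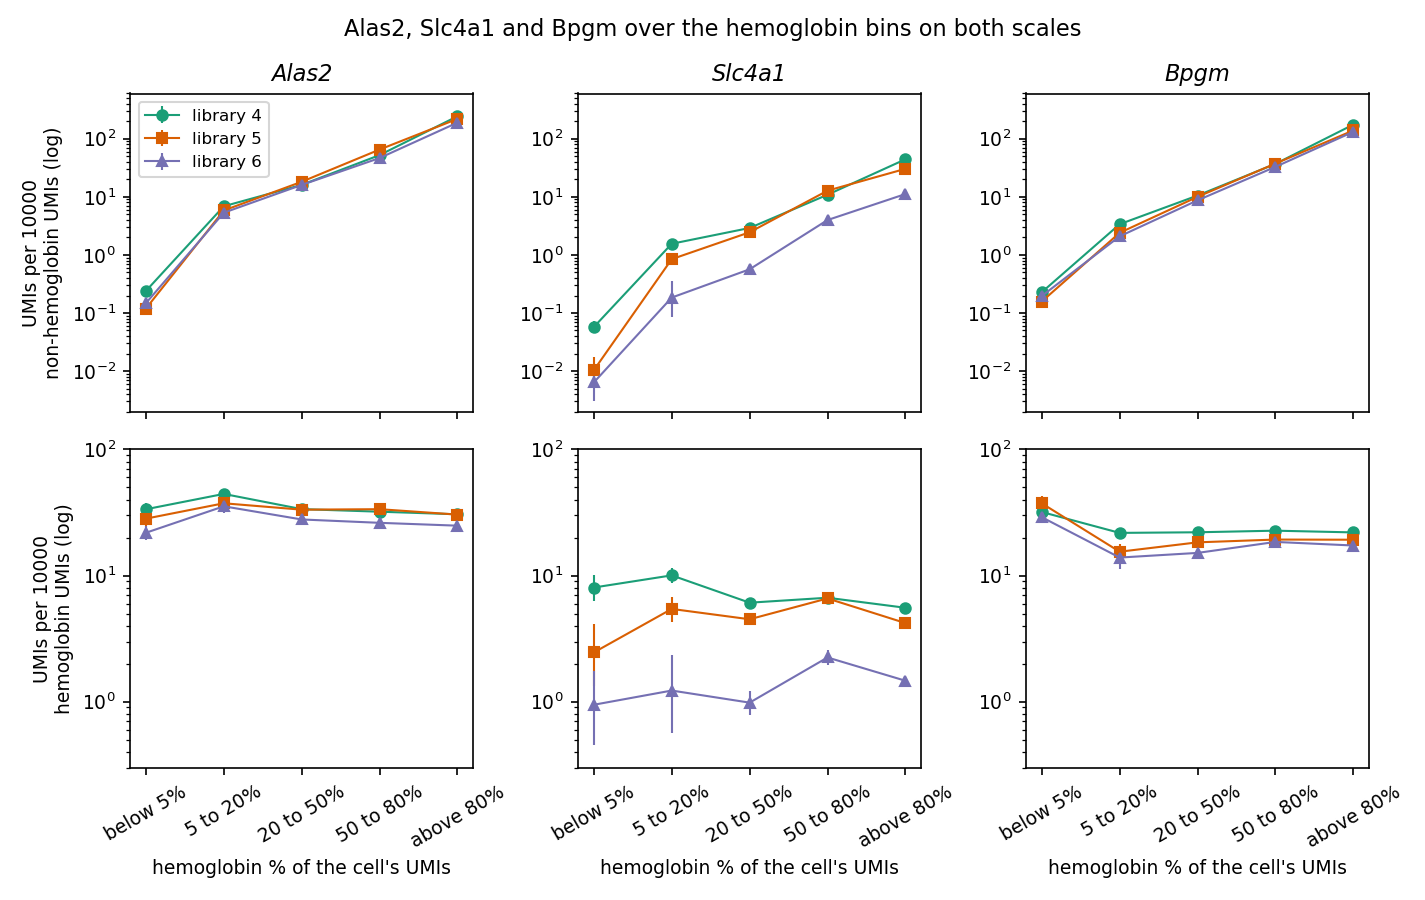
Alas2, Slc4a1 and Bpgm in the 5 hemoglobin bins of libraries 4, 5 and 6, per 10000 non-hemoglobin UMIs and per 10000 hemoglobin UMIs, on log axes, with exact intervals. The first scale rises more than 10-fold from 20 to 50% to above 80% in each library. On it the bin edges fix a rise of hemoglobin, though not its exact size. The second scale differs by 1.49-fold or less between those bins.

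Markers of white blood cells and of platelets moved with the bins. A cell was matched to the list with the most markers at 2 or more UMIs, with at least 2 such markers. A leukocyte list was matched by 95.2% of cells below 5% hemoglobin, 93.3% at 5 to 20%, 95.6% at 20 to 50%, 51.7% at 50 to 80% and 2.38% above 80%. The 908 cells at 20 to 50% held 429 that matched the B cell list, 201 the monocyte or macrophage list, 149 the neutrophil list, 63 the T cell list and 24 the NK cell list, and 1 cell matched the erythroid list. By library, 40, 196 and 193 of these cells matched the B cell list in libraries 4, 5 and 6. The monocyte or macrophage list was matched by 173, 16 and 12. All 7 B cell markers and all 10 neutrophil markers had UMIs in that bin. The B cell markers summed to 6.75, 46.9 and 52.5 per 10000 non-hemoglobin UMIs in libraries 4, 5 and 6 at 20 to 50% and to 0.295, 2.19 and 8.86 above 80%. The neutrophil markers summed to 434, 193 and 185, and to 21.8, 13.5 and 34.5 above 80%. The platelet markers went the other way. All 6 had UMIs in both bins, and they summed to 5.14, 11.8 and 11.4 at 20 to 50% and to 36.1, 62.3 and 78.6 above 80%. Counted per cell, they summed to 4.21, 6.51 and 6.05 UMIs and to 3.32, 4.18 and 5.06 UMIs. The part of these markers in the ratios of the members was not tested.

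The cells at 20 to 50% carried nearly as much other RNA as cells below 5%. Median non-hemoglobin UMIs were 8121, 4930 and 4634 in libraries 4, 5 and 6, against 10273, 5502 and 5069 below 5%. Their median hemoglobin UMIs were 3704, 2926 and 2993, against 6763, 4516 and 4601 above 80%. For cells of the B cell list alone, the medians of non-hemoglobin UMIs at 20 to 50% were 5036 and 4641 in libraries 5 and 6, against 5090 and 4803 below 5%. In library 4 the values were 5024 against 9773. With cells of every list but the erythroid one left out, 27 cells remained at 20 to 50% and 3939 above 80%. The log2 ratios per non-hemoglobin UMI were then 3.82 for Alas2, 4.49 for Slc4a1 and 4.07 for Bpgm. On this scale the bin edges still fix the rise of hemoglobin.

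**Figure D4:**
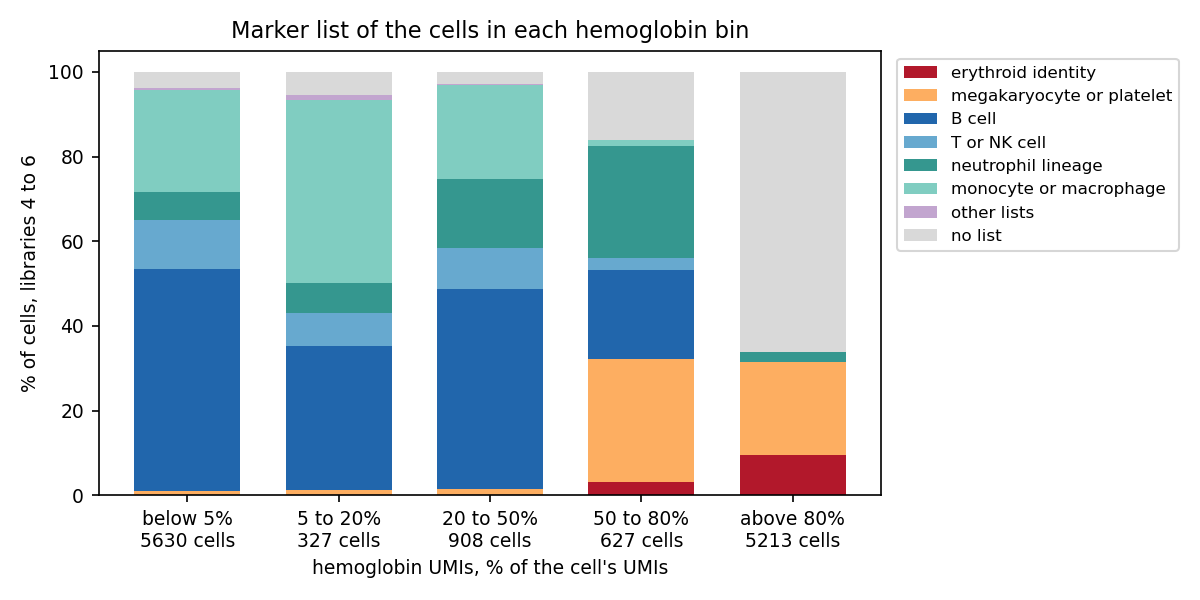
Stacked percentages of the cells of libraries 4, 5 and 6 together that matched each marker list, by hemoglobin bin, with the number of cells under each bar. Leukocyte lists cover more than 90% of cells up to 50% hemoglobin and 2.38% above 80%, where most cells match no list.

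Cells above 80% hemoglobin held few detected genes. Their median number of detected genes was 245, 186 and 228 in libraries 4, 5 and 6. The erythroid list was matched by 493 of 5213 cells, 302 of them in library 4, and the platelet list by 1150, while 3446 matched none. All 10 erythroid markers had UMIs, and they summed to 87.3, 34.4 and 19.1 per 10000 non-hemoglobin UMIs. Of 5 genes of progenitors and dividing cells, chosen after their values were seen, Kit, the receptor of early progenitors, had no UMI. Klf1, a transcription factor of globin genes, had 7, 5 and 4 UMIs, Gata1 had 36, 33 and 11, the proliferation marker Mki67 had 40, 54 and 25 and Top2a had 11, 25 and 19. Per 10000 non-hemoglobin UMIs, Mki67 had 0.357, 0.361 and 0.219, against 0.0933, 0.0577 and 0.0514 at 20 to 50%. Top2a had 0.0983, 0.167 and 0.167, against 0.0771, 0.0808 and 0.0514. Gata1 had 0.322, 0.221 and 0.0964, against 0.0122, 0.0404 and 0.00642. Per hemoglobin UMI, Mki67 and Top2a were lower above 80% in each library, and Gata1 in library 5 alone. Cells matching the erythroid list held more Slc4a1 than cells matching no list, with 8.17, 9.77 and 5.87 against 4.64, 3.68 and 1.38 per 10000 hemoglobin UMIs, and the list shares no gene with the members. Their Alas2 was 32.8, 32.4 and 22.9, against 29.98, 30.3 and 25.1. Their median UMIs were 7981, 6129 and 6328, against 7544, 5021 and 5138.

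Within the cells above 80%, Slc4a1 parted from Alas2 and Bpgm. Hemoglobin per non-hemoglobin UMI rose 2.14-fold, 2.15-fold and 2.13-fold from the first to the last of the steps described here. The edges again fix that it rises, though not its exact size. The cells were cut into steps of 80 to 85%, 85 to 90% and 90% or more. Slc4a1 per 10000 non-hemoglobin UMIs went from 61.5 to 48.3 and 27.6 over the 3 steps in library 4, from 39.4 to 31.2 and 14.6 in library 5 and from 14.8 to 12.3 and 5.71 in library 6. Alas2 went the other way, from 194 to 237 and 282 in library 4, from 177 to 223 and 270 in library 5 and from 138 to 186 and 238 in library 6. Bpgm went from 117 to 167 and 220, from 109 to 142 and 170 and from 94.0 to 130 and 166. The last step over the first was 0.448, 0.370 and 0.385 for Slc4a1, 1.45, 1.53 and 1.73 for Alas2 and 1.88, 1.56 and 1.76 for Bpgm.

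Per hemoglobin UMI all 3 were lower in the last step than in the first, and Slc4a1 by the largest factor. Its last step was 0.210, 0.172 and 0.181 of its first, against 0.680, 0.710 and 0.811 for Alas2 and 0.879, 0.724 and 0.827 for Bpgm. The scales differ by 1 factor for all genes of a library, so the order of the genes is the same on both. The edges also fix a fall of the non-hemoglobin UMIs as a whole relative to hemoglobin, so these declines are not free of the rule. The alpha share was 35.7%, 35.6% and 35.7% over the steps in library 4, 42.1%, 42.0% and 41.8% in library 5 and 43.1%, 43.3% and 43.4% in library 6. Median detected genes went from 328 to 258 and 211, from 244 to 189 and 140 and from 307 to 239 and 190.

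Other genes of the red cell were followed over the same steps, chosen after the values of the members were seen. Per non-hemoglobin UMI, Car2, the carbonic anhydrase 2 gene, had a last step of 0.960 times its first in library 4 and 0.328 and 0.335 in libraries 5 and 6. Tfrc, the transferrin receptor gene, had 0.275, 0.0412 and 0.768. These ratios rest on few counts, with 78, 2 and 8 Tfrc UMIs in the last step and 134, 70 and 8 in the first, so the libraries are not compared by them. Mkrn1 had 1.44, 1.33 and 1.33 and Bnip3l, which marks mitochondria for removal, had 1.32, 1.36 and 1.42. Car2 was thus lower in the last step, as Slc4a1 was, in libraries 5 and 6, and Mkrn1 and Bnip3l were higher, as Alas2 and Bpgm were, in all 3.

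**Figure D5:**
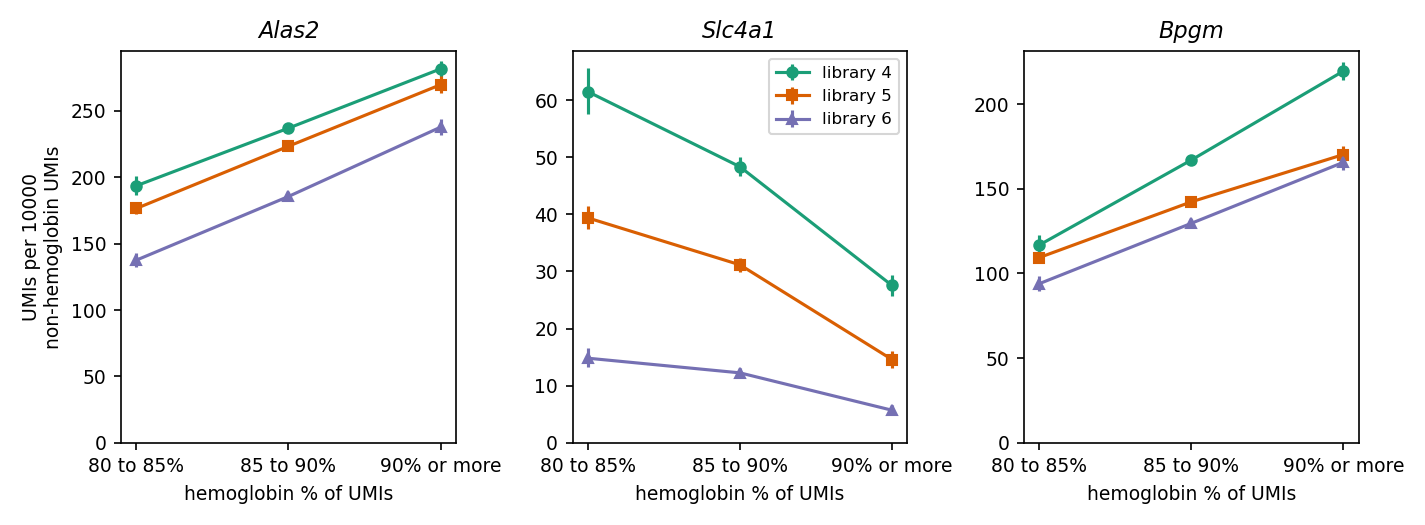
Alas2, Slc4a1 and Bpgm as UMIs per 10000 non-hemoglobin UMIs over 3 steps of the hemoglobin share above 80%, in libraries 4, 5 and 6, with exact intervals as bars. Slc4a1 at 90% or more is 0.370 to 0.448 of its value at 80 to 85%, while Alas2 and Bpgm are 1.45 to 1.88 times theirs.

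Between libraries, Slc4a1 was again the member that differed most. In cells above 80%, 9.92% of 2844 genes were at least 2-fold higher in library 4 than in library 6 per hemoglobin UMI and 52.5% were at least 2-fold lower, with a median log2 ratio of -1.08 over all of them. Of the 7 members, Slc4a1 alone passed this mark, with 5.56 UMIs per 10000 in library 4, 4.203 in library 5 and 1.47 in library 6, or 3.79-fold (3.56 to 4.03) between libraries 4 and 6. Alas2 was 1.23-fold (1.21 to 1.25) and Bpgm 1.27-fold (1.24 to 1.30) higher in library 4 than in library 6. Some other genes of the red cell differed more than Slc4a1. Car2 was 6.31-fold, Prdx2, an abundant antioxidant of red cells, 4.33-fold and Tfrc 14.8-fold (10.6 to 21.2) higher in library 4. Hbq1b was 1.58-fold higher and Hbq1a 0.366-fold, which is the direction their counts over all cells had.

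Several lists of related genes were mostly higher in library 4 than in library 6, against 9.92% of all genes. Per hemoglobin UMI, 12 of 18 tested genes of the red cell membrane and skeleton were higher in library 4 and 1 was lower. Of heme synthesis 7 of 10 were higher, of the globin chaperone and antioxidants 6 of 8 and of organelle removal and late proteolysis 8 of 16, with none lower in these 3 lists. Glycolysis had 0 of 9 higher and 6 lower, a share near the 52.5% lower over all genes. Erythroid transcription factors had 4 of 9 higher and 2 lower, iron uptake and delivery 1 of 7 higher and 1 lower, proliferation 1 of 4 higher, early erythroid progenitors 2 of 4 higher and other globins 0 of 2 higher and 1 lower. Against the median of -1.08 over all genes, the list medians were 1.67 for membrane, 1.94 for heme synthesis, 1.47 for antioxidants, 0.96 for organelle removal and -1.15 for glycolysis on the log2 scale. Library 4 was also the deepest of the 3 per cell, and the part of depth in these differences was not tested.

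The bins were also compared over all genes. Called genes changed at least 2-fold in the summed counts, with the same direction in each library, among genes with at least 30 UMIs. Between 20 to 50% and above 80%, 581 of 9623 genes, or 6.04%, were higher and 8069, or 83.9%, were lower, with a median log2 ratio of -2.69. Alas2, Slc4a1 and Bpgm were all called higher on this scale. The edges fix the rise of hemoglobin on it, and any RNA that kept its ratio to hemoglobin would rise as much. Nothing more is read from these calls. Per hemoglobin UMI, 3 genes, or 0.0312%, were higher and 97.5% were lower, with a median of -6.54, and none of Alas2, Slc4a1 and Bpgm was called in either direction. The 3 higher genes, named after their values were seen, were Syt14, 1300017J02Rik and Slc25a21. Between below 5% and 20 to 50%, 164 of 12386 genes, or 1.32%, were higher per non-hemoglobin UMI and 2.39% were lower, and the median was -0.12.

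The lists are given by role on the same scale, where 6.04% of all genes were higher and 83.9% lower and hemoglobin itself rose by 3.85 (log2). Of the red cell membrane and skeleton, 16 of 19 tested genes were higher above 80% than at 20 to 50% per non-hemoglobin UMI and 2 were lower, with a median log2 ratio of 3.65. On the log2 scale Epb41, which encodes protein 4.1 of the skeleton, rose by 3.49, while the broadly present Cd47 had -0.82 and was not called. Of organelle removal and late proteolysis, 15 of 18 were higher and 2 lower, with a median of 3.11. Mkrn1 rose by 3.66 and the ubiquitin gene Ubb by 2.61. Per hemoglobin UMI no gene of either list was higher, and 4 and 7 genes were lower. Over all genes, 0.0312% were higher and 97.5% lower on that scale.

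Of 11 tested genes of heme synthesis 5 were higher per non-hemoglobin UMI, among them Alas2, Fech, the enzyme that puts iron into heme, at 3.57 and Cpox at 2.25. Tmem14c, a mitochondrial protein needed for heme synthesis, fell by 2.74, near the median of -2.69 over all genes, and was 1 of 2 genes called lower. Fech had 3.45, 4.62 and 3.28 UMIs per 10000 non-hemoglobin UMIs at 20 to 50% in libraries 4, 5 and 6 and 43.2, 50.8 and 38.0 above 80%. Tmem14c had 2.08, 0.935 and 0.803, and 0.286, 0.114 and 0.254. Of iron uptake and delivery 5 of 12 were higher and 6 lower, with Slc25a37, the mitochondrial iron importer mitoferrin, at 3.36, Ftl1 at 1.57 and Fth1 at 1.47. Both ferritin genes are also abundant in macrophages.

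Of 13 tested genes of red cell glycolysis, Bpgm was higher per non-hemoglobin UMI and 9 were lower, shares near those over all genes (6.04% and 83.9%), with a median log2 ratio of -2.37 against -2.69 over all genes. Gapdh fell by 2.32, from 9.94 to 1.20 UMIs per 10000 in library 4, and Pkm had -1.22. Of the globin chaperone and antioxidants 6 of 11 were higher and 3 lower. Gpx1 rose by 2.91 and Prdx2 by 3.13, while Gpx4 had 0.82 and was not called. Erythroid transcription factors had 4 of 12 higher and 5 lower, with Lmo2 at 1.59 and Klf3 at -1.85. Bcl11a, a repressor of fetal globin in humans, was at -2.99, against the median of -2.69 over all genes. At 20 to 50% it had 0.722, 3.38 and 3.78 UMIs per 10000 non-hemoglobin UMIs in libraries 4, 5 and 6. The B cell markers summed to 6.75, 46.9 and 52.5 in the same cells. The part of B cell RNA in the value of Bcl11a was not tested. Proliferation genes had 4 of 11 higher and 6 lower, and Pcna fell by 2.69, the median over all genes. Mcm3 of that list fell by 3.34 and Mcm6 fell by 4.15, while its Mki67 and Top2a were higher in each library. Early erythroid progenitors had 5 of 5 tested genes higher, namely Car1, Car2 at 3.74, Aqp1, Cpox at 2.25 and Ybx3 at 2.60, of which Car2 and the water channel gene Aqp1 encode proteins that mature red cells also keep. The theta-like globins Hbq1a and Hbq1b rose by 4.13 and 4.21.

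Likeness to each maturation gene was measured across 15 points, 5 bins in 3 libraries. Among the genes most like Alas2, of 10949 with at least 100 UMIs, were Fam46c (r = 0.993), Ube2l6 (0.993), Bpgm (0.992) and Fech (0.989). For Bpgm they included Fech (0.996), Ube2l6 (0.993), Alas2 (0.992) and Fam220a (0.991). For Slc4a1 they included Fam213a (0.988), Rsad2 (0.981), Ube2c (0.980) and Ube2o (0.977), and its correlation with Alas2 was 0.951 and with Bpgm 0.965. These are Pearson correlations of log2 values per non-hemoglobin UMI over points that share the libraries and the hemoglobin share, so high values are common to red cell genes. Per hemoglobin UMI, over 9 points and chosen after the first values were seen, Alas2 was most like Epb41 (0.976) and Slc4a1 like Fam213a (0.988).

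In the other 4 libraries the globin counts sat in very few barcodes. Only 13 kept cells had at least 5% hemoglobin, 3, 6, 2 and 2 in libraries 1, 2, 3 and 7, and they held 97.7%, 95.9%, 93.7% and 97.3% of the hemoglobin UMIs. Of the other cells, 2.48% to 4.11% had a hemoglobin UMI, against all cells below 5% in libraries 4, 5 and 6. The 1 barcode that matched the erythroid list was in library 7, with 47.9% hemoglobin among 15491 UMIs, an alpha share of 40.9%, 34 UMIs of Alas2, 80 of Slc4a1 and none of Bpgm. Its ratio of Slc4a1 to Alas2 was opposite to that of the summed counts of libraries 4, 5 and 6, where Alas2 was higher in each bin. The ratio in single cells of those libraries was not examined. The 4 cells of library 2 and 7 that matched the endothelial list and held 8.93% to 55.3% hemoglobin had no Slc4a1 UMI.

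Bpgm differed from the other members in these libraries, since 92.8% to 100% of its UMIs came from cells below 5% hemoglobin. It had 18.6 to 36.8 CPM in cells of the endothelial list and 27.8 to 36.6 CPM in cells of the epithelial list, and 1.62 to 11.3 CPM in cells of the neutrophil list, over those libraries with at least 50 such cells. Those levels lie well below the 617 to 863 CPM of libraries 4, 5 and 6. Alas2, by contrast, had 77.8% to 100% of its UMIs in the 13 cells with at least 5% hemoglobin.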

How the data were processed

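The authors deposited 1 matrix of UMI counts for 31053 genes and 37344 barcodes, made with Cell Ranger 3.1.0 and the STAR aligner on mm10 per the labels and the methods, which also state that reads were down-sampled across samples. The labels name version 3 chemistry and the supplementary methods version 2. The members and gene lists were chosen with earlier results of these data known. Cells outside the mean ± 2 SD of UMIs or genes, or with over 10% mitochondrial UMIs, were removed, as the methods state, which kept 31844. No doublet caller was run, and barcodes with markers of another cell type were kept and counted by 15 marker lists, a cell being matched to the list with the most markers at 2 or more UMIs, with at least 2 such markers and no tie. Counts were summed per library and bin. With 1 unmapped matrix, n is 1 and no test was run. A gene was called at a 2-fold or larger summed ratio in the same direction in each library (between single libraries, at the ratio alone), with at least 30 UMIs. All 7 members were named, with the 3 genes of each of 10 lists with the most UMIs and the 5 genes most like each maturation gene (log2, pseudocount 0.1, at least 100 UMIs). Some genes that this rule names are not reported here. The depth was 5271 to 9084 median UMIs per cell, and a count of 0 was read as allowing 3. Each cell was thinned to 3000 UMIs where stated. Bin edges, the filter, weights, depth, cells of other lists and the denominator were varied, and libraries were left out in turn. The calls were tested on simulated data. Python 3.11.15, numpy 2.4.6, scipy 1.17.1, pandas 2.3.3, matplotlib 3.10.9 and Biopython 1.88 were used.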

Additional observations from a re-analysis of the deposited data

How the results depend on the processing

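The alpha share of 40.2% in cells with at least 20% hemoglobin became 40.2% with at most 5% mitochondrial UMIs, 40.3% with bin edges at 10, 30, 60 and 85%, 40.2% with equal weights, 40.8% after thinning and 40.2% without cells of other marker lists, and it ranged from 38.9% to 42.5% with 1 library left out in turn. With the other bin edges the log2 ratios per non-hemoglobin UMI were 3.27 for Alas2, 3.11 for Slc4a1 and 3.39 for Bpgm, and without cells of other lists 3.82, 4.49 and 4.07. Thinning gave 3.61 for Alas2 and 3.85 for Bpgm, and equal weights gave 3.85 for Slc4a1. Per UMI of all genes they were 1.22, 1.26 and 1.41. Per hemoglobin UMI, a scale added after the data were seen, they were -0.14 for Alas2, -0.11 for Slc4a1 and 0.0515 for Bpgm. The summed ratios of Alas2 and Slc4a1 thus reversed, but Slc4a1 in library 6 alone did not, at 0.577. With 1 library left out the ratios per non-hemoglobin UMI ranged from 3.59 to 3.76 for Alas2, 3.74 to 3.82 for Slc4a1 and 3.86 to 3.96 for Bpgm. The 581 genes higher above 80% became 79 per UMI of all genes and 3 per hemoglobin UMI. The 8069 lower genes became 2100 without cells of other lists, where 27 cells were left at 20 to 50%. The cause was not tested, except that the denominator itself changes between scales. No paired analysis was possible because the barcodes name no sample. The bin edges fix the rise of hemoglobin per non-hemoglobin UMI, and of any RNA that keeps its ratio to hemoglobin. The size of the ratios on that scale is thus no sign of stability. Alpha copies with nearly identical sequence limit the split of alpha globin.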
